A study of Danio rerio with 8 samples.

Results

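The collagen genes of zebrafish (Danio rerio) larval chondrocytes other than the cartilage fibre types II, IX and XI are described here across 8 libraries. They are the 47 of 32057 gene rows whose symbol in the deposited table begins with col, a type number, the letter a and a chain number, with the col2a1, col9a and col11a symbols left out. The libraries fall into 2 groups of 4, at 3 days after fertilisation. WT larvae carried the transgenes Tg(sox10:EGFP) and Tg(col2a1a:mcherry). The larvae labelled kat6a carried both transgenes and a kat6a genotype, for which no allele, zygosity or lesion is given in the sources used here, and the design text calls those cells kat6a-deficient. All larvae were kept at 28.5 degrees in medium with 0.003% PTU, which blocks pigment, and cells positive for both reporters were sorted from whole larvae. The sox10 reporter marks neural crest and its derivatives and the col2a1a reporter marks cartilage, so the gate itself rests on promoters active in cartilage. The comparison asks which genes differ in these cells when kat6a, a gene of a histone acetyltransferase, is deficient.

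Collagens are trimers of chains that wind around one another, and the type number names the trimer. Types I and V build the fibrils of bone, tendon and skin, where type V nucleates the fibril and limits its width, and type VI forms beaded filaments that, in mammalian cartilage, surround each chondrocyte. Types VIII and X are short chains that form open networks, type X being a marker of hypertrophic cartilage in mammals, while type IV is the network of basement membranes. Types XII, XIV and XVI bind along fibrils without forming them, types XV and XVIII lie at basement membranes, and types VII and XVII anchor epidermis to the tissue beneath it.

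Of the 47 rows, 45 were collagen genes of 18 types, and 2 more, col4a3bpa and col4a3bpb, carry the letters of the rule but encode a ceramide transfer protein. Another 4 rows that carry a collagen symbol in a newer table of gene names stand under other symbols in the deposited table and were not counted. Values are FPKM, fragments scaled by transcript length and library total, so levels of different genes can be set side by side. Tests used limma on log2(FPKM + 1) over the 11763 genes with a mean of at least 0.5 FPKM, and a gene was called where its p, adjusted by Benjamini-Hochberg, was under 0.05. Of the 47 rows 31 passed that filter, 30 of them collagens of 14 types. All 7 genes taken as markers of the set, col1a1a, col1a2, col5a1, col5a2a, col6a1, col6a2 and col8a2, were above 0 in every library.

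Summed FPKM was 311061 to 339307 per library and 11010 to 16108 genes stood above 0. The 6 cartilage markers, the type II gene col2a1a and matn1 among them, were above 0 in every library. Their sum was 41497 to 47081 FPKM in the 6 libraries numbered 2 to 4, but 22128 in the WT library numbered 1 and 26647 in its kat6a counterpart, so that this pair stands apart. That sum is carried by col2a1a and matn1, and not every marker went the same way: acana was higher in the pair, at 2389 and 2127 FPKM against 1240 to 1637 in the rest, and sox9a was highest in WT replicate 1, at 905 against 294 to 515 in the other libraries. WT replicate 4 stands apart in another way, with 6 epidermal markers summing to 389 FPKM against 16.7 to 93.5 elsewhere. Neither the labels nor the headers say what the replicate number shares. Pairs below are libraries of the same number, and for numbers 3 and 4 the values do not show that they are paired. FPKM of kat6a itself was 32.0, 15.2, 16.3 and 18.9 in the WT libraries and 28.2, 11.98, 12.4 and 9.09 in those of kat6a, with a limma adjusted p of 0.958.

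No collagen of the set differed between the groups by the threshold. Of the 31 tested rows limma called 0 at an adjusted p under 0.05, against 0.017% of all tested genes, and the smallest adjusted p among the members was 0.958. At an unadjusted p under 0.05 there was 1 lower member, col4a5, or 3.23% of members beside 3.92% of all genes, and 0 higher, beside 0.646%. The log2 fold change, kat6a over WT, was below 0 for 27 members and above 0 for 4, that is 87.1% below 0 against 69.5% of all tested genes. Its median was -0.44 over the members and -0.16 over all genes. With the filter at a mean of 1 FPKM those medians were -0.33 and -0.15. Of the members below 0, col17a1a, col18a1a, col5a2b, col5a3b and col4a1 had kat6a means of 0.066 to 0.431 FPKM, under the filter of 0.5. They were tested only through their WT values, which favours a value below 0. Among those above 0, col28a2a had a WT mean of 0.430 and was tested only through its kat6a values. With the replicate number as a block the smallest adjusted p among the members was 0.451 and no member was called either, beside 0.0085% of all genes. Under the block the count at an unadjusted p under 0.05 moved from 1 to 10, with 9 lower members, or 29%, beside 8.31% of all genes, and 1 higher, or 3.23%, beside 2.09%. Among the 9 lower was col4a3bpb, which is not a collagen, with a limma unadjusted p of 0.0388 under the block. Its log2 fold change of -1.08 was the lowest of the members. Over the 18 alternatives tried, the adjusted p of every member lay between 0.444 and 0.9999. In bulk RNA of a sort, fewer cells of a type and less RNA per cell cannot be told apart.

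**Figure D1:**
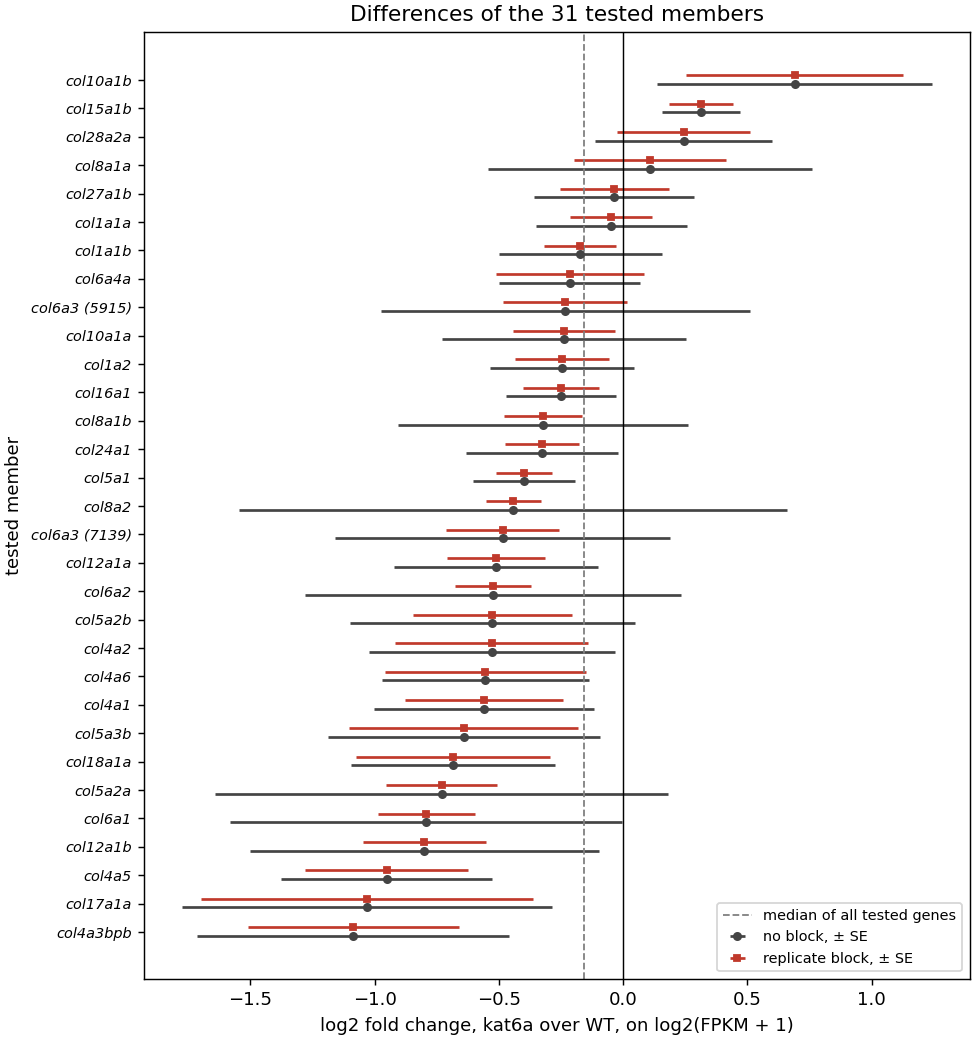
Log2 fold change (kat6a over WT, x axis, on log2(FPKM + 1)) of the 31 tested members on the y axis, with bars of 1 SE, without (circles) and with (squares) the replicate block. Of the 31 members, 27 lie below 0 against a median of -0.16 for all genes (dashed line), and the bars of col8a2, col5a2a, col6a1 and col6a2 shorten under the block, for col8a2 from 1.10 to 0.11.

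The set made up a small part of the collagen message. The 45 collagen rows summed to 5690, 2953, 3659 and 3522 FPKM across WT libraries, set against 4429, 2194, 2915 and 2561 across kat6a libraries, or 0.684% to 1.74% of all FPKM. The 9 cartilage fibre collagens summed to 29890, 67379, 62272 and 56094 FPKM in the WT libraries and 35403, 63054, 60034 and 56057 in those of kat6a. Relative to those, the set stood at 3.48% to 6.28% in the 6 libraries numbered 2 to 4 and at 19.04% and 12.5% in WT and kat6a replicate 1. Within the set, types X, VIII and I held most of the FPKM, and whether type X or type VIII led depended on the library. Type X held 57.6% to 68.4% of the set in the libraries numbered 2 to 4 and 8.504% and 16.9% in WT and kat6a replicate 1. Type VIII did the opposite, with 71.9% and 61.4% in the libraries numbered 1 and 7.15% to 9.85% in the others, and type I held 6.13% to 13.2%. Type XV held 3.06% to 10.99%, and more than type VIII in kat6a replicates 2 and 4.

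**Figure D2:**
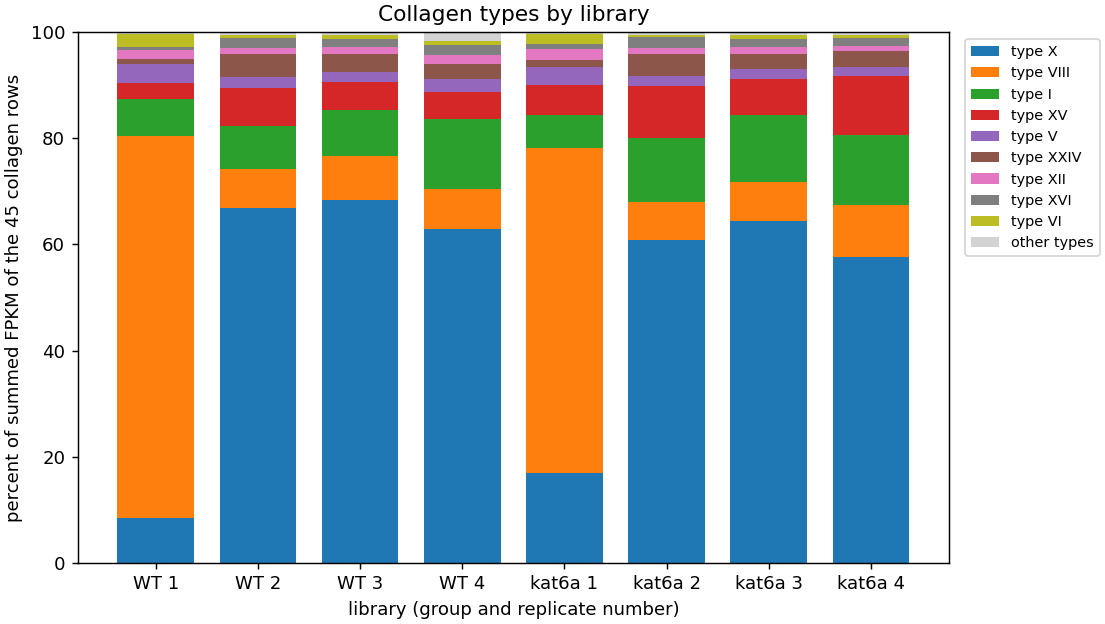
Share of the summed FPKM of the 45 collagen rows held by each type (y axis, percent) in each library (x axis). Type X holds 57.6% or more in the 6 libraries numbered 2 to 4, while type VIII holds 61.4% or more in the 2 libraries numbered 1.

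The network-forming short chains are taken first. The most abundant member was col10a1a (ENSDARG00000054753), a type X chain found in zebrafish in hypertrophic chondrocytes and bone-forming cells, which ranked 22 among all genes by mean FPKM. FPKM was 484, 1966, 2500 and 2205 across WT libraries, set against 744, 1325, 1874 and 1470 across kat6a libraries. Both libraries numbered 1 were below the other 6, and the groups overlapped. Within pairs of the same number the ratio of kat6a to WT was 1.54, 0.674, 0.750 and 0.667, above 1 in the pair numbered 1 and below 1 in the other 3. Its log2 fold change, -0.24 ± 0.49 (SE), had a limma adjusted p of 0.989, and without both libraries numbered 1 it was -0.52 ± 0.15, with an unadjusted p of 0.00852 and an adjusted p of 0.700 (0.662 to 0.9999 over all alternatives). Leaving out single libraries moved it between -0.79 (without WT replicate 1) and 0.025 (without kat6a replicate 1), and it also turned positive, at 0.0042, without WT replicate 3. Relative to col2a1a in the same library, col10a1a stood at 5.38% to 12.6% in WT and 6.76% to 9.76% in kat6a. The paralog col10a1b was far lower, at 0.316, 6.70, 3.47 and 8.37 FPKM in the WT libraries and 5.37, 9.70, 5.92 and 5.08 in those of kat6a. It had the highest log2 fold change of the members, 0.69 ± 0.55, with limma adjusted p = 0.958 and overlapping groups, and 0.095 without WT replicate 1.

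Second by the mean of all 8 libraries, though not over the 6 numbered 2 to 4, was col8a2 (ENSDARG00000060893), a type VIII chain known in mammals from the cornea and from vessel walls. Over those 6 its mean of 211 FPKM was below col1a1b at 220.2 and col15a1b at 213. Its log2 fold change had the largest SE of the 31 tested members. FPKM was 4037, 205, 268 and 241 across WT libraries, set against 2679, 134, 192 and 226 across kat6a libraries. Both libraries numbered 1 were high, at a mean 15.9 times that of the other 6, in which no library passed 268. In each pair the kat6a library was the lower one, with ratios of 0.664, 0.654, 0.717 and 0.941. The log2 fold change of -0.44 had an SE of 1.10 without the block and of 0.11 with it, and the adjusted p was 0.989 and 0.451. Leaving out WT replicate 1 alone turned it to 0.58, and leaving out kat6a replicate 2 alone to 0.024.

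Its type VIII partners did not share one pattern. For col8a1b FPKM was 51.0, 6.81, 23.3 and 22.5 in the WT libraries and 35.8, 7.05, 14.5 and 19.6 in those of kat6a, again highest in the libraries numbered 1. For col8a1a it was 0.747, 9.61, 7.99 and 6.71 across WT libraries, set against 1.93, 15.8, 3.92 and 6.19 across kat6a libraries, lowest in the libraries numbered 1. As a result col8a2 exceeded col8a1b by 79.2 and 74.8 times in WT and kat6a replicate 1 and by 10.7 to 30.1 times in the other libraries. Neither col8a1 paralog was called, with limma adjusted p = 0.989 for col8a1b and 0.997 for col8a1a.

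**Figure D3:**
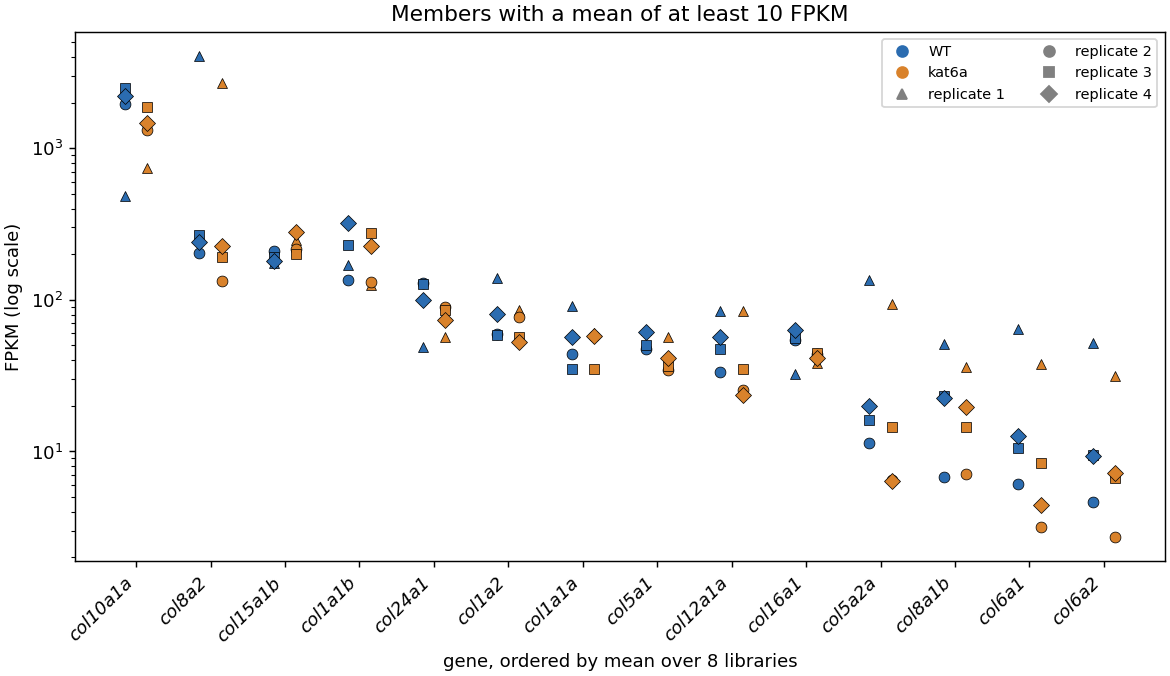
FPKM (y axis, log scale) of the 14 members with a mean of at least 10 FPKM, by gene (x axis), group (colour) and replicate number (shape). The libraries numbered 1 (triangles) are the highest for col8a2, at 4037 and 2679, and the lowest for col10a1a, at 484 and 744.

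Among the fibril formers, the highest type I gene in every library was col1a1b. FPKM of col1a1b (ENSDARG00000035809) was 169, 134, 228 and 323 in the WT libraries and 126, 131, 277 and 227 in those of kat6a. For col1a2 (ENSDARG00000020007) it was 139, 59.5, 58.7 and 81.1 across WT libraries, set against 85.4, 76.7, 57.1 and 53.1 across kat6a libraries, and for col1a1a (ENSDARG00000012405) 91.5, 43.7, 35.1 and 56.6 in the WT libraries and 60.4, 57.4, 34.8 and 57.8 in those of kat6a. The groups overlapped for all 3 genes. The log2 fold changes were -0.17 ± 0.33 for col1a1b, -0.24 ± 0.29 for col1a2 and -0.047 ± 0.30 for col1a1a (SE), with limma adjusted p of 0.989, 0.976 and 0.997. The sign of col1a1a turned under median-ratio and upper-quartile scaling, to 0.11 and 0.17, and that of col1a1b under upper-quartile scaling, to 0.047.

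The ratio of col1a1a to col1a2 ranged 1.82-fold over the 8 libraries, from 0.598 to 1.09, with a median of 0.703. The ratio of col1a1b to col1a2 ranged 3.98-fold, from 1.22 in WT replicate 1 to 4.85 in kat6a replicate 3. It was 1.22, 2.26, 3.89 and 3.99 across WT libraries, set against 1.47, 1.71, 4.85 and 4.28 across kat6a libraries, so the replicate numbers 1 and 2 were low and 3 and 4 high in both groups. The summed FPKM of col1a1a and col1a1b exceeded col1a2 by 1.87 to 5.45 times. These are ratios of RNA and do not give the chains held by a trimer.

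Of the type V chains, 1 varied little over the libraries and the other varied widely. The alpha 1 chain gene col5a1 (ENSDARG00000012593), which is common to the main type V trimers, stood at 63.1, 47.4, 50.003 and 61.3 FPKM in the WT libraries and 56.8, 34.6, 36.7 and 41.2 in those of kat6a. It was lower in the kat6a library of every pair, by ratios of 0.900, 0.731, 0.733 and 0.671, and only kat6a replicate 1 reached into the WT range. Its log2 fold change of -0.40 ± 0.21 (SE) had a limma adjusted p of 0.958 and an unadjusted p of 0.0808, or 0.451 and 0.0102 with the block. The unadjusted p was 0.0149 without both libraries numbered 1. Its partner col5a2a (ENSDARG00000031678) stood at 135, 11.4, 16.2 and 20.1 FPKM across WT libraries, set against 93.8, 6.53, 14.4 and 6.39 across kat6a libraries, 9.16 times as high in the mean of the libraries numbered 1 as in the rest. The ratio of col5a1 to col5a2a was therefore 0.467 and 0.605 in the libraries numbered 1 and 2.55 to 6.44 in the others.

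Lower in the pair in every case, col5a2a had a log2 fold change of -0.73 ± 0.91 (SE), limma adjusted p = 0.976, and 0.451 with the block. Without WT replicate 1 its sign turned, to 0.031. The other tested type V genes were scarce and partly listed at 0. Listed FPKM of col5a2b was 5.37, 0.227, 0.291 and 0 in the WT libraries and 1.24, 0, 0.0463 and 0 in those of kat6a. Listed FPKM of col5a3b was 0, 0.206, 0 and 5.30 across WT libraries, set against 0, 0.0134, 0.0948 and 0.156 across kat6a libraries. Thus col5a2b was highest in the libraries numbered 1 and col5a3b in WT replicate 4. The untested col5a3a did not pass 0.124 FPKM in any library.

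The minor fibril formers were lowest in the libraries numbered 1. Type XXIV, known from developing bone in mice, was represented by col24a1 (ENSDARG00000095843), with 48.8, 129.98, 127 and 100.1 FPKM in the WT libraries and 56.95, 89.8, 86.0 and 73.3 in those of kat6a. Both libraries numbered 1 were low, as they were for the main cartilage fibre gene col2a1a, where this pair had 8994 and 10783 FPKM and the rest 17360 to 20538. The ratio of col24a1 to col2a1a was 0.543%, 0.633%, 0.639% and 0.561% across WT libraries, set against 0.528%, 0.458%, 0.448% and 0.422% across kat6a libraries. Those ratios did not overlap between the groups, which held for 1 of 31 members, or 3.23%, beside 1.44% of all tested genes in that direction. In the other direction it held for 0 members, beside 0.196%. The ratio was examined after the values were seen and was not tested. FPKM of col24a1 itself overlapped, with a log2 fold change of -0.33 ± 0.31 (SE) and limma adjusted p = 0.965. Leaving out both libraries numbered 1 gave -0.51 ± 0.15, with an unadjusted p of 0.00983 and an adjusted p of 0.743 (0.495 to 0.9999 over all alternatives). In the authors' deposited table it had the smallest p of the members, 0.0253, at a fold, read as WT over kat6a, of 1.53 and a q of 0.877.

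Type XXVII, a fibril former of cartilage in mammals, stood lower. FPKM of col27a1b was 4.27, 9.47, 13.8 and 11.6 in the WT libraries and 7.33, 8.96, 9.98 and 9.17 in those of kat6a, lowest in the libraries numbered 1, with a log2 fold change of -0.035 ± 0.32 (SE) and limma adjusted p = 0.998. Its sign turned under each of the 3 scalings, to 0.097, 0.12 and 0.15.

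The main type VI chains varied together over the libraries. FPKM of col6a1 (ENSDARG00000074908) was 64.1, 6.14, 10.5 and 12.7 across WT libraries, set against 37.6, 3.16, 8.36 and 4.43 across kat6a libraries. For col6a2 (ENSDARG00000061436) it was 52.2, 4.61, 9.55 and 9.32 in the WT libraries and 31.3, 2.72, 6.72 and 7.21 in those of kat6a. Each was several times higher in both libraries numbered 1, by 6.74 and 6.24 times in the means, and lower in the kat6a library of each pair. The alpha 3 chain gene col6a3 stands in the table under 2 gene IDs. FPKM of the first, ENSDARG00000077139, was 11.9, 1.09, 2.23 and 1.84 across WT libraries, set against 8.11, 0.713, 1.502 and 0.647 across kat6a libraries. The second, ENSDARG00000095915, was listed at 6.43, 0.206, 0.373 and 0.567 in the WT libraries and 6.24, 0.0461, 0.338 and 0 in those of kat6a. If both are parts of one gene, reads may have been divided between them, so the level of either is uncertain.

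In 7 of the libraries col6a1 stood at 1.10 to 1.36 of col6a2, the exception being kat6a replicate 4 at 0.614. Over all 8 libraries it exceeded the first col6a3 row by 4.43 to 6.88 times. The log2 fold changes were -0.79 ± 0.79 for col6a1, -0.52 ± 0.76 for col6a2 and -0.48 ± 0.67 for the first col6a3 row (SE). The limma adjusted p was 0.968, 0.987 and 0.984, and with the block 0.451, 0.451 and 0.495. Without WT replicate 1 the value of col6a1 was -0.13, and the sign of col6a2 turned to 0.14 and that of the first col6a3 row to 0.082. Without kat6a replicate 1 they were -1.47, -1.12 and -1.05. In the zebrafish assembly GRCz12tu col6a1 and col6a2 lie on one chromosome with 1 coding gene between them. The further type VI gene col6a4a did not follow the others, with 1.25, 1.09, 0.662 and 2.08 FPKM across WT libraries, set against 0.825, 0.915, 1.31 and 0.647 across kat6a libraries.

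Type XII, which binds along type I fibrils in dense connective tissue, again had 2 paralogs of unequal spread. FPKM of col12a1a was 85.0, 33.2, 47.3 and 56.6 in the WT libraries and 84.1, 25.4, 35.0 and 23.4 in those of kat6a. For col12a1b it was 19.6, 3.15, 3.47 and 3.94 across WT libraries, set against 13.2, 1.06, 2.66 and 0.919 across kat6a libraries. Both genes were highest in the libraries numbered 1 and lower in the kat6a library of each pair, though by as little as a ratio of 0.990 for col12a1a in the pair numbered 1. Their log2 fold changes were -0.51 ± 0.41 and -0.80 ± 0.70 (SE), with limma adjusted p = 0.958 and 0.963, or 0.467 and 0.451 with the block. Without kat6a replicate 1 they were -0.91 and -1.44, with an adjusted p of 0.671 for each (0.467 to 0.9999 and 0.451 to 0.9999 over all alternatives), and without WT replicate 1 they were -0.28 and -0.25.

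Type XVI, another fibril-associated collagen, was lowest in the libraries numbered 1. FPKM of col16a1 was 32.5, 54.5, 55.9 and 63.7 in the WT libraries and 38.5, 43.9, 44.6 and 41.1 in those of kat6a, and the groups overlapped. A log2 fold change of -0.25 ± 0.22 (SE) had a limma adjusted p of 0.963, and without both libraries numbered 1 the value was -0.41 ± 0.14, with an unadjusted p of 0.0152 and an adjusted p of 0.782 (0.562 to 0.9999 over all alternatives). The type XIV genes were near 0, col14a1b at 0.0844 to 1.87 FPKM and col14a1a at 0 to 0.263, with the highest value of each in WT replicate 4. Type XXI col21a1 was listed above 0 in 3 libraries, up to 0.677 FPKM, and of the 2 type XIX rows the higher was above 0 in 1 library, at 0.0199.

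Type XV stood higher in the kat6a library of every pair. The gene col15a1b (ENSDARG00000061848) stood at 174, 210.2, 191 and 179 FPKM across WT libraries, set against 247, 216, 199.7 and 281 across kat6a libraries, a mean of 189 ± 16.02 and 236 ± 36.1 (SD, n = 4). The kat6a library was the higher one in each of the 4 pairs, by ratios of 1.42, 1.03, 1.05 and 1.57. It was the 1 member of 31 of which that held, or 3.23%, beside 4.49% of all tested genes. Of the groups themselves kat6a replicate 3 lay within the WT range. A log2 fold change of 0.31 ± 0.16 (SE) came with a limma adjusted p of 0.958 and an unadjusted p of 0.0721, or 0.476 and 0.0461 with the block. The mean of the libraries numbered 1 was 0.989 times that of the rest. Type XVIII, the related basement membrane collagen, had col18a1a at 0.879, 0.822, 0.285 and 3.91 FPKM in the WT libraries and 0.802, 0.162, 0.303 and 0.187 in those of kat6a, and col18a1b was listed at 0 in all libraries.

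Type IV genes were low, and WT replicate 4 held the highest value of 3 of the 6, col4a5, col4a6 and col4a3. FPKM of col4a5 (ENSDARG00000052063), the most abundant chain, was 4.11, 4.11, 3.64 and 15.2 across WT libraries, set against 3.19, 1.33, 2.59 and 3.01 across kat6a libraries. The groups did not overlap, which held for 1 lower member, or 3.23%, beside 2.57% of all tested genes. Even so the lowest WT library, at 3.64, lay close to the highest kat6a library, at 3.19. For col4a5 the log2 fold change of -0.95 ± 0.42 (SE) had a limma adjusted p of 0.958 and an unadjusted p of 0.0484, and 0.451 and 0.0239 with the block. Without WT replicate 4 it was -0.52, with an adjusted p of 0.987 (0.451 to 0.9999 over all alternatives), and the unadjusted p no longer passed 0.05. Its neighbour on the chromosome, col4a6, stood at 1.14, 1.32, 0.778 and 5.51 FPKM in the WT libraries and 1.12, 0.489, 1.29 and 0.711 in those of kat6a, so that col4a5 exceeded it by 2.01 to 4.67 times in every library.

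The chains of the most widespread type IV trimer were scarcer than these. Listed FPKM of col4a1 was 2.19, 0.177, 0.284 and 2.13 across WT libraries, set against 1.43, 0, 0.220 and 0.0744 across kat6a libraries, and that of col4a2 was 3.73, 0.0373, 0.299 and 1.90 in the WT libraries and 1.18, 0.162, 0.688 and 0 in those of kat6a. Both were high in WT replicates 1 and 4 and in kat6a replicate 1, and their limma adjusted p was 0.958 and 0.965. Neither col4a3 nor col4a4 passed 0.332 FPKM in any library.

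Collagens of the epidermal junction were highest in WT replicate 4. FPKM of col17a1a, a transmembrane collagen of the hemidesmosome, was 0.627, 0.160, 0.190 and 15.2 across WT libraries, set against 0.125, 0.155, 0.400 and 0.150 across kat6a libraries. For col7a1, the anchoring fibril collagen, it was 1.06 in WT replicate 4 and 0 to 0.112 elsewhere, and for col17a1b 0.791 and 0 to 0.195. The members that stood at least 2-fold above all other libraries in WT replicate 4 were col17a1a, col4a5, col4a6, col18a1a and col5a3b, 5 of 31 or 16.1%, beside 2% of all tested genes. Of these, col17a1a, col18a1a and col5a3b passed the filter on low values only through WT replicate 4. Their place in that count was thus fixed by the value that admitted them. Of the 6 epidermal markers 5 were highest in WT replicate 4, krtt1c19e at 178 FPKM against 0 to 17.7 elsewhere, krt5 at 60.7 against 1.25 to 5.42, krt4 at 88.9 against 6.57 to 54.6, epcam at 49.4 against 5.86 to 17.7 and cdh1 at 10.97 against 1.34 to 9.07. The other, tp63, was at 1.12 there and higher, at 2.11 and 1.26, in the libraries numbered 1. Their part in these collagen values was not tested. For col17a1a a log2 fold change of -1.03 ± 0.74 (SE) had a limma adjusted p of 0.958. Without WT replicate 4 the gene was under the filter on low values and had no test.

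Of type XXVIII, collagens with von Willebrand factor domains, col28a2a was listed at 0, 0.242, 0.816 and 0.661 FPKM across WT libraries, set against 0, 0.952, 1.60 and 0.447 across kat6a libraries, at 0 in both libraries numbered 1. The remaining rows of that type were at 0 in 7 or 8 libraries. In all, 4 rows of the set were listed at 0 throughout, col18a1b, col28a1b, col28a2b and 1 row of col19a1, and 25 rows were above 0 in every library. The non-collagen col4a3bpb, tested because its symbol meets the rule, was listed at 17.3, 4.26, 3.07 and 2.60 FPKM in the WT libraries and 3.32, 2.01, 4.35 and 0 in those of kat6a.

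Both libraries numbered 1 were above the other 6 for 12 of the 31 tested members and below them for 6, or 38.7% and 19.4%, beside 28.5% and 6.21% of all tested genes. At least 4-fold above the highest of the other 6 there were 4 members, or 12.9%, beside 2.3% of all genes, namely col8a2, col5a2a, col5a2b and the second col6a3 row. Over the other 6 libraries col5a2b and the second col6a3 row had means of 0.094 and 0.255 FPKM, under the filter of 0.5. Both were tested only because they were high in the libraries numbered 1, so these counts are no evidence about them. At least 2-fold there were 8, or 25.8%, beside 5.94%, which adds col6a1, col6a2, the first col6a3 row and col12a1b. Those with both libraries numbered 1 below the rest were col10a1a, col24a1, col16a1, col27a1b, col8a1a and col28a2a, as were all 9 cartilage fibre collagens. These are descriptions over 2 libraries against 6, with no test. Marker lists of other cells, summed, are given for WT and then kat6a replicate 1. The osteoblast list had 5 of 6 genes found, with bglap at 0 in every library. Its sum was 20.998 and 11.2 FPKM, against 7.57 to 14.8 in the rest. Of its genes only ifitm5 was above the rest in both libraries, at 10.2 and 5.70 FPKM against 0 to 3.29. The 6 tendon and perichondrium genes stood at 94.9 and 83.2 FPKM, against 62.6 to 107. Of these ogna was above the rest in both libraries, at 51.1 and 44.8 FPKM against 11.96 to 34.1. Both fibina and postnb were below the rest in both, and scxa, tnmd and xirp2a were not set apart. The 6 muscle genes stood at 445 and 529 FPKM, against 384 to 839, and over groups at 384 to 572 in WT and 503 to 839 in kat6a. The sums of the muscle and tendon lists thus had both libraries inside the range of the rest. The 5 notochord genes were above that range, at 140 and 130 FPKM against 27.01 to 40.0, through cav1 and cavin1b, while tbxta, shha and shhb did not pass 0.717 FPKM in any library. The 5 endothelial genes were also above it, at 39.3 and 32.4 FPKM against 17.1 to 31.04, through fli1a, while cdh5, kdrl, pecam1 and tie1 did not pass 0.484. The 6 fin fold genes summed to less, 119 and 107 FPKM against 128 to 188, through bmp1a, while hmcn1 was above the rest in both libraries and the other 4 genes were not set apart. The 6 epidermal genes stood at 93.5 and 70.4 FPKM, above the 16.7 to 60.2 of the other libraries except WT replicate 4. The part of other cells in these collagen values was not tested.

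Within pairs, 11 of the 31 members were lower in the kat6a library of all 4 pairs, or 35.5%, beside 16.3% of all tested genes. They were col8a2, col5a1, col5a2a, col12a1a, col12a1b, col6a1, col6a2, both col6a3 rows, col4a5 and col4a1. With a kat6a mean of 0.431 FPKM, under the filter of 0.5, col4a1 was tested only through its WT values, which favours its place in this count. The second col6a3 row was tested only through the libraries numbered 1, with pair ratios of 0.970, 0.224, 0.907 and 0. Of the 11 members 7 are also at least 2-fold higher in both libraries numbered 1, and the type VI genes encode chains of one trimer, so the 11 are not independent of each other. The pairs are libraries of the same number, and the correlations between libraries do not show that numbers 3 and 4 are paired. None of the 11 was called with the block, where the adjusted p of col8a2, col6a1, col5a1, col6a2, col5a2a and col12a1b was 0.451 in each case.

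**Figure D4:**
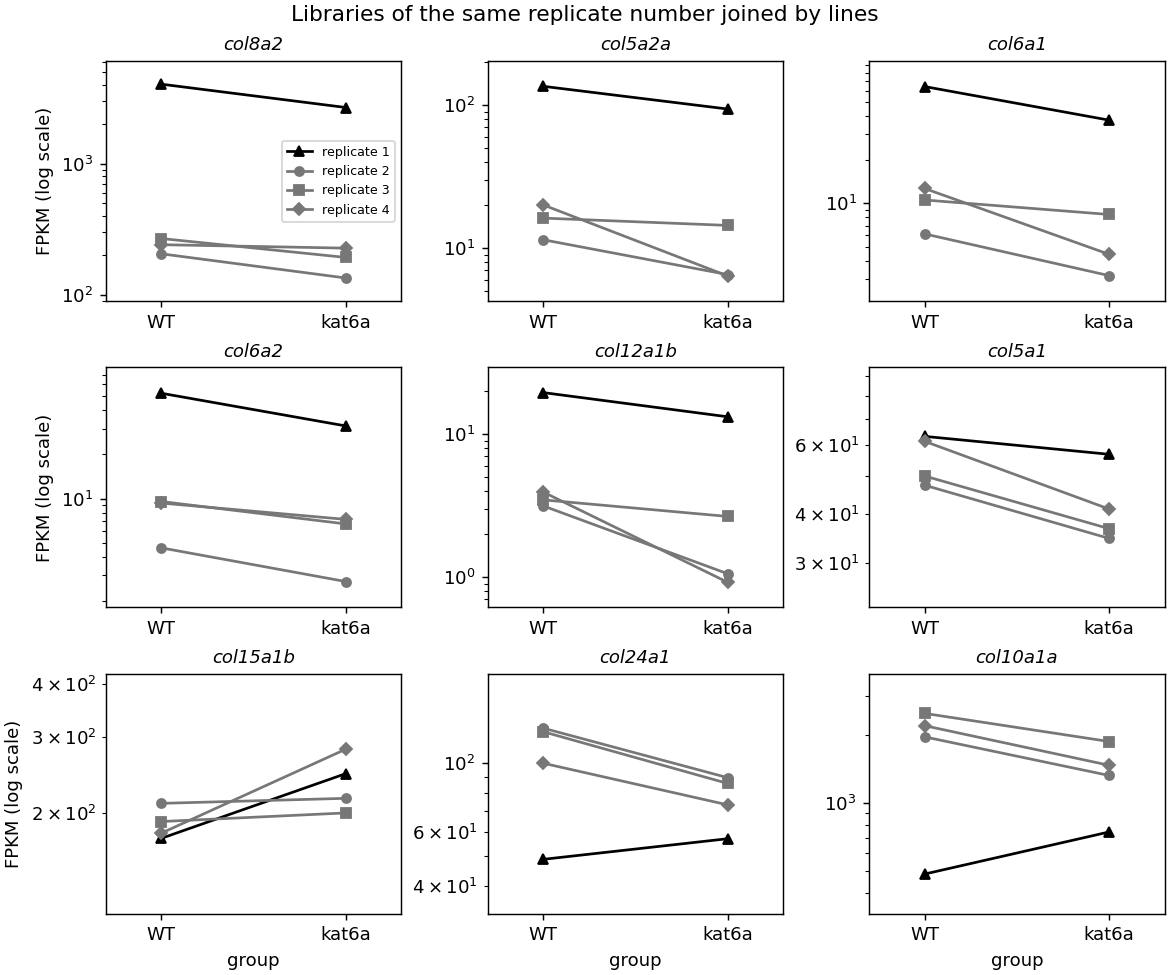
FPKM (y axis, log scale, own range in each panel) of 9 members in WT and kat6a libraries (x axis), with libraries of the same replicate number joined. Lines of col8a2, col5a2a, col6a1, col6a2, col12a1b and col5a1 run downward in all 4 pairs and those of col15a1b upward, while col24a1 and col10a1a run upward in the pair numbered 1 and downward in the other 3.

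Partner genes of these collagens were taken from lists chosen with earlier results known. Of 22 genes of procollagen processing and crosslinking 13 were tested, and limma called 0, with 0 higher and 1 lower at an unadjusted p under 0.05, beside 0.646% and 3.92% of all tested genes. With the block those counts were 1 and 1, pcolceb and loxl2b, beside 2.09% and 8.31%, and 0 were called. The lower gene was loxl2b, of a lysyl oxidase that crosslinks collagen, with 43.8, 41.4, 54.4 and 50.2 FPKM across WT libraries, set against 38.5, 23.2, 32.7 and 37.3 across kat6a libraries. Its groups did not overlap, which held for 2.57% of all tested genes in that direction, and the log2 fold change of -0.53 ± 0.21 (SE) had a limma adjusted p of 0.958, or 0.451 with the block. The median log2 fold change of the 13 was -0.043, beside -0.16 over all genes. The most abundant were pcolceb, of an enhancer of procollagen cleavage, with a mean of 613 ± 83.5 FPKM over WT libraries and 744 ± 94.9 over kat6a libraries (SD, n = 4 each), then the lysyl oxidase genes loxl2a and loxl3b. Their limma adjusted p was 0.958, 0.989 and 0.994. In each of the 4 pairs pcolceb was higher in the kat6a library, which held for 4.49% of all tested genes. Its limma p under the block was 0.00895 unadjusted and 0.451 adjusted. The related loxl4 and loxl1 were high in the pair numbered 1, as col8a2 was. For loxl4 FPKM was 581 and 467 against 67.7 to 126 in the rest, and for loxl1 367 and 331 against 50.3 to 114. Of the 13 tested genes both libraries numbered 1 were above the rest for 3 and below for 6. Those shares were 28.5% and 6.21% over all tested genes.

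Of 20 basement membrane partners 13 were tested, with 0 called and 0 at an unadjusted p under 0.05 in either direction by limma, beside 0.646% higher and 3.92% lower of all tested genes, and a median log2 fold change of -0.35. With the block 0 were called and 1 was lower at an unadjusted p under 0.05, beside 8.31% of all genes. That was agrn, the agrin gene, which was scarce, with a mean of 0.659 FPKM. Its groups did not overlap, which held for 2.57% of all tested genes in that direction. FPKM of agrn was 0.544 to 2.13 in WT and 0.0308 to 0.493 in kat6a. Its kat6a mean of 0.265 was under the filter of 0.5, so it was tested only through its WT values, with a mean of 1.05. That favours a lower value in kat6a, so its p and the lack of overlap are no evidence about it. The most abundant were sparc, of a collagen-binding protein, with a mean of 1080 ± 301 FPKM over WT libraries and 1161 ± 292 over kat6a libraries (SD, n = 4 each), then the nidogen gene nid2a and the perlecan gene hspg2. Of 24 binding partners of fibrils and type VI 17 were tested, with 0 called by limma, 0 higher and 1 lower at an unadjusted p under 0.05, beside the same shares, and a median of -0.19. With the block 0 were called, and 0 higher and 4 lower had an unadjusted p under 0.05, namely fn1b, fbn2b, bgna and fmodb, beside 2.09% and 8.31% of all genes. The lower one without the block was fmodb, a fibromodulin gene, listed at 0.501, 0.271, 1.53 and 2.25 FPKM across WT libraries, set against 0, 0, 0.313 and 0 across kat6a libraries. Its kat6a mean of 0.078 was under the filter of 0.5, so fmodb was tested only through its WT values, with a mean of 1.14. That favours a lower value in kat6a, so its place in both counts is no evidence about it.

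Highest of these by the mean of all 8 libraries was fn1b, a fibronectin gene, with 1378, 162, 164 and 189 FPKM across WT libraries, set against 605, 103, 87.1 and 111 across kat6a libraries. It was high in the same pair as col8a2 and col6a1. It was also lower in the kat6a library of every pair, which held for 16.3% of all tested genes. Its log2 fold change of -0.88 ± 0.78 (SE) had a limma adjusted p of 0.963, and with the block an SE of 0.11, an unadjusted p of 0.00011 and an adjusted p of 0.194. In the 6 libraries numbered 2 to 4 it stood at 87.1 to 189 FPKM, below tgfbi at 321 to 412 and ddr2b at 262 to 342. The type VI receptor gene cspg4 was also high in that pair, at 409 and 446 FPKM against 124 to 153 in the rest. Of the 17 tested genes of this list both libraries numbered 1 were above the rest for 7 and below for 4. Over all tested genes those shares were 28.5% and 6.21%.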

How the data were processed

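RNA-seq was made with a directional kit from sorted cells of 8 samples, 4 per group, per the labels' protocols. The deposited table holds 1 FPKM value per gene and library, and HISAT2, StringTie and the build GRCz10 are named without versions in the submitters' processing notes. It also holds the authors' deposited fold, p-value and q-value per gene. The header of the fold states no direction, and it was read as WT over kat6a from the values per library. Low values shared no common step (at most 0.954% of genes under 0.5 FPKM), so read counts were not recovered and the depth is unknown. Nothing says that the samples came from separate clutches, so p-values measure the spread between these samples.

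Genes with a mean of at least 0.5 FPKM (11763 of 32057) entered a limma 3.58.1 fit (R 4.3.3) of log2(FPKM + 1), with an intensity trend, two-sided tests and Benjamini-Hochberg adjustment over all of them. Fold changes on that scale understate the change of low genes. The script was tested on simulated data. Values were tabulated with pandas 2.3.3 and numpy 2.4.6. Genes named are the 7 markers, members with a mean of at least 10 FPKM, the highest member of each type, members with an unadjusted p under 0.05 or groups that do not overlap, their chain partners, col2a1a, kat6a, and up to 3 genes per partner list. Other genes named, such as loxl2b and fmodb, were chosen after their values were seen. The members and lists were chosen with earlier results of these data known.

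Same-numbered libraries deviated together from their group means, with r = 0.589, 0.347, 0.127 and 0.151 for numbers 1 to 4. The number was taken as pairing them because each r was over 0.1, and the block is given where it moves a count. Deviations from a group mean sum to 0, so the shift shared by the libraries numbered 1 by itself raises r among numbers 2 to 4. Libraries of different numbers from 2 to 4 correlated by 0.0593 to 0.158. The r of numbers 3 and 4 therefore does not show that they are paired. For WT replicate 4 the library name repeats the number 3 of WT replicate 3, with an index of its own, while the title gives 4. The title was followed for its group and number, so its place in the pair numbered 4 rests on the title. Libraries are listed in the order of their replicate numbers, 1 to 4. Names were matched for 46 of 47 member IDs. Alternatives were the pseudocount, the filter, scaling, the block, array weights and leaving out libraries.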

Additional observations from a re-analysis of the deposited data

Results flagged for a closer look

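Within a group of 4 libraries, a member's highest or lowest value was set apart where its gap to the nearest library over the group's whole range exceeded Dixon's critical value. That value flags about 1 in 20 groups by chance only where values are normally distributed. FPKM were used here without a log, so the chance rate is not known. Of 62 member groups 25 met it, or 40.3%, beside 14.5% of 23526 groups over all tested genes. Some low members, such as col5a2b and col17a1a, passed the filter on low values only through the library that was then set apart. WT replicate 1 was the high library for 9 members, at FPKM of 4037 for col8a2, 135 for col5a2a, 64.1 for col6a1, 52.2 for col6a2, 19.6 for col12a1b, 17.3 for col4a3bpb, 5.37 for col5a2b, and 11.9 and 6.43 for the first and second col6a3 rows. The kat6a library of the same number was the high one for 9 members, at 2679 for col8a2, 93.8 for col5a2a, 37.6 for col6a1, 31.3 for col6a2, 13.2 for col12a1b, 1.43 for col4a1, 1.24 for col5a2b, and 8.11 and 6.24 for both col6a3 rows. WT replicate 4 was the high library for 5 members, at 15.2 for col17a1a, 15.2 for col4a5, 5.51 for col4a6, 5.30 for col5a3b and 3.91 for col18a1a. In kat6a replicate 3, col1a1a was the low value at 34.8 and col17a1a the high value at 0.400.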

How the results depend on the processing

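Over 18 alternatives, 0 members were called in any, and the lowest adjusted p of a member was 0.444. Of 544 member values 509 kept their direction and 35 changed sign, in 13 members. The median log2 fold change of the members lay between -0.71 and -0.22 over all alternatives. It moved from -0.44 to -0.28 with median-ratio scaling, -0.28 with quantile normalisation and -0.22 with upper-quartile scaling. That of all genes moved in the same direction, from -0.16 to -0.039, 0.017 and 0.0050 under the same 3 settings. Over all genes 2 were called. The number was 1 with a pseudocount of 0.1, 0 with no filter, 0 with each of the 3 scalings, 14 with array weights, 4 without both libraries numbered 1, and 0 to 5 on leaving out single libraries. With the replicate block it was 1, and 0 when median-ratio scaling was added to that. Members at an unadjusted p under 0.05 numbered 1, and 0 with no filter, median-ratio or upper-quartile scaling, 10 with the replicate block, 6 when median-ratio scaling was added to it, 4 with array weights, 8 without both libraries numbered 1, and 0 to 4 on leaving out single libraries. The share of all genes at that p was 4.57%, and 10.4%, 9.68%, 6.48% and 6.03% under the block, the block with that scaling, array weights and without that pair. The block changed no call of a member.

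Signs turned under scaling for col27a1b (0.097 median-ratio, with and without the block, 0.12 quantile, 0.15 upper-quartile), col1a1a (0.11 median-ratio, with and without the block, 0.17 upper-quartile), col1a1b (0.047 upper-quartile), col6a4a (0.087 quantile) and the second col6a3 row (0.018 quantile). With array weights col1a1a was 0.16 and col1a2 0.018. Without both libraries numbered 1, col8a1a was -0.10 and col1a1a 0.13. Leaving out 1 library at a time turned the sign of 12 members, whose values then ranged from -1.56 to 0.031 for col5a2a, -1.41 to 0.58 for col8a2, -1.12 to 0.14 for col6a2, -1.05 to 0.082 and -0.91 to 0.38 for the first and second col6a3 rows, -0.82 to 0.094 for col8a1b, -0.79 to 0.025 for col10a1a, -0.48 to 0.49 for col8a1a, -0.39 to 0.023 for col1a2, -0.38 to 0.051 for col1a1b, -0.35 to 0.15 for col27a1b and -0.24 to 0.21 for col1a1a. With its sign kept, col6a1 ranged from -1.47 to -0.13. The cause was not tested. Some low members were under the filter without 1 library and have no value there. The depth is unknown, so no interval for counting error is given.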

Other observations

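The authors' deposited fold and the log2 fold change computed here pointed in opposite directions for 10 of the 31 tested members, or 32.3%, beside 21.8% of all tested genes. Of the 11 members lower in the kat6a library of every pair, 6 had a fold below 1 in the authors' deposited table. Read as WT over kat6a, that is higher in kat6a. These were col8a2 at 0.615, col5a2a at 0.830, col6a1 at 0.948, col6a2 at 0.826 and the col6a3 rows at 0.864 and 0.692. Over all tested genes the same held for 196 of 1918. Neither the calculation behind that fold nor its direction is described in the sources used.

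A further 4 rows with newer collagen names stand in the table under older clone-based symbols. FPKM of the row now named col23a1a, of a transmembrane collagen, was 2.10, 1.82, 2.61 and 2.91 across WT libraries, set against 1.37, 1.44, 1.80 and 2.53 across kat6a libraries. The row now named col6a4b was at 0.259, 0.961, 2.45 and 2.18 across WT libraries, set against 0.436, 1.90, 0.931 and 0.742 across kat6a libraries. The other rows, now col23a1b and col7a1l, were listed at 0 in all libraries. The symbol col7a1l is also carried by a row of the set under another gene ID.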
